A study of Rattus norvegicus with 12 samples.

Results

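The genes described here encode anti-Müllerian hormone (AMH) and its receptor, the subunits of inhibin and activin, and the follistatins that bind activin. They were chosen by name in the deposited table of the rat ovary: Amh, Amhr2, Inha, Inhba, Inhbb, Fst and Fstl3, 7 of 19730 genes, and every one of the 7 was found and passed the filter on low values, an average of 1 FPKM or more over the 12 libraries (FPKM counts sequenced fragments, scaled to transcript length and to the size of the library). RNA from whole ovaries of wild type female Sprague Dawley rats at postnatal week 15 was sequenced, 4 libraries in each of 3 groups, with 1 rat per library. Control rats received standard food. PCOS rats, a model of polycystic ovary syndrome, received oral letrozole, an inhibitor of the aromatase that makes oestrogen, at 1 mg/kg/day for 30 days together with a high-fat diet (HFD), and those kept as models had been selected by vaginal smears that stayed in metestrus and diestrus. PCOS-MV rats underwent the same induction and then received mogroside V (MV), the sweet glycoside of Siraitia grosvenorii fruit, at 600 mg/kg/day by gavage for another 30 days, as a preparation that also held other material. What the PCOS group received during those last 30 days, and the stage of the cycle at which each rat was killed, are not given in the sources used here.

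AMH is made by granulosa cells of growing follicles and acts through its own type II receptor, AMHR2, to restrain the recruitment of follicles. Inhibin is a dimer of the alpha subunit (Inha) with a beta subunit (Inhba or Inhbb) and lowers the release of follicle-stimulating hormone (FSH) from the pituitary, while activin is a dimer of beta subunits alone, raises FSH release and acts on granulosa cells. Follistatin (Fst) and follistatin-like 3 (Fstl3) are secreted proteins that bind activin and block it.

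In the PCOS ovary, Inha and Inhba were higher than in the control ovary and Fst and Fstl3 were lower. Inhba had the largest change of the 7 genes, with a mean of 253 FPKM in PCOS against 98.6 FPKM in Control. These 4 of 7 genes (57.1%) passed the test in PCOS vs Control, where 27.4% of the 13430 genes tested did, 11.9% higher and 15.6% lower. The same 4 genes had PCOS and Control libraries that did not overlap, as did 31% of all genes, 13.8% higher and 17.2% lower. The median log2 change of the 7 genes was -0.60, the value of Inhbb, which was not called, against -0.03 over all genes tested. By sign alone, 3 of the 7 were up and 4 down. In PCOS-MV vs PCOS, 2 of 7 genes (28.6%) passed, Inha lower and Fst higher, where 25.7% of all genes tested did, 14.3% higher and 11.4% lower. These 2 genes also had no overlap between the groups, as did 30% of all genes, 16.7% higher and 13.3% lower. The median of the 7 genes was 0.21, again the value of Inhbb, against 0.03 over all genes, with 4 up and 3 down. Both comparisons use the same 4 PCOS libraries, so the values of a gene in them are set side by side and their agreement is not counted as a result.

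The libraries differed little in depth. The steps between low FPKM values put them at 0.920 to 1.12 times the depth of Control replicate 1, the absolute depth is unknown, and no member was listed at 0 in any library. No granulosa, theca or luteal marker measured was at 0 in any library. In whole tissue, fewer cells of a type and less RNA per cell cannot be told apart.

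Part of the granulosa cell markers moved with the groups. Of 11 granulosa markers, 10 could be tested, and 5 were higher and 0 lower in PCOS vs Control (Fshr, Cyp19a1, Esr2, Gja1 and Nr0b1), and 0 were higher and 5 lower in PCOS-MV vs PCOS. By sign alone, called or not, 7 of the 10 were up and 3 down in PCOS vs Control. In PCOS-MV vs PCOS, 1 was up and 9 were down. Gja1 gave 50.5% of the sum of the 11 markers. That sum was 511 to 703 FPKM in Control, 786 to 1070 FPKM in PCOS and 480 to 568 FPKM in PCOS-MV libraries. Theca markers summed to 112 to 158, 1691 to 3197 and 112 to 205 FPKM in the same order, with 5 of 8 higher and 1 lower in PCOS vs Control and 0 higher and 5 lower in PCOS-MV vs PCOS. The median log2 change of the 8 theca markers was 0.65 and -0.54 in these comparisons, much less than their sum moved. Luteal markers summed to 4286 to 8018, 1829 to 3468 and 2965 to 6933 FPKM, with 1 of 7 higher (Lhcgr) and 5 lower in PCOS vs Control and 3 higher and 1 lower in PCOS-MV vs PCOS. Endothelial markers summed to 89.2 to 113, 57.9 to 72.6 and 79.3 to 105 FPKM, with 1 of 5 higher (Vwf) and 4 lower in the PCOS ovary, and 2 higher and 0 lower after MV. All 3 adipocyte markers tested were lower in the PCOS ovary, and 1 (Fabp4) was higher and 0 lower after MV, with sums over 5 markers of 33.0 to 101, 15.7 to 27.8 and 18.4 to 48.0 FPKM. Fewer calls came from the remaining lists. Against Control, the PCOS ovary had 0 of 5 smooth muscle, 0 of 4 oocyte and 0 of 1 ciliated markers called. Of 7 proliferation markers 1 was lower, and of 6 leukocyte markers 1 was higher. The share called over all genes was 27.4%. After MV, leukocyte markers alone among these lists gave calls, 1 higher and 1 lower, where 25.7% of all genes were called. The part of these cell types in the results below was not tested.

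The stretches upstream of the gene starts are shown for Amh, Inha and Inhba, the members whose windows hold matches to the motifs searched, although Amh was not called in any comparison. They are the 250 bases before each start in RefSeq's GRCr8 assembly, and 6 of the 7 genes were matched in the promoter table used. They lie at chr7:9559868-9560117 on the minus strand for Amh, chr9:84442859-84443108 on the plus strand for Inha and chr17:53804509-53804758 on the minus strand for Inhba. Capitals mark matches to the motifs searched.
Amh: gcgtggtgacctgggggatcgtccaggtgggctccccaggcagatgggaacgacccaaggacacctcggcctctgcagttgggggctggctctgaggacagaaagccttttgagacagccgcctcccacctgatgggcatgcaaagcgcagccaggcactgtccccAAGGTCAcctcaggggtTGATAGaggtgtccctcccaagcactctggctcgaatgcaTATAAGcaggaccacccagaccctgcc
Inha: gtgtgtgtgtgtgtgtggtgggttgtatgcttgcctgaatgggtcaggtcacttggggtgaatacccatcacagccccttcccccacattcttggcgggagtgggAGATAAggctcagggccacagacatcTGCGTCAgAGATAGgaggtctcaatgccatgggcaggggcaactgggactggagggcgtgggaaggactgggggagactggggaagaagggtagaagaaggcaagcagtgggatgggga
Inhba: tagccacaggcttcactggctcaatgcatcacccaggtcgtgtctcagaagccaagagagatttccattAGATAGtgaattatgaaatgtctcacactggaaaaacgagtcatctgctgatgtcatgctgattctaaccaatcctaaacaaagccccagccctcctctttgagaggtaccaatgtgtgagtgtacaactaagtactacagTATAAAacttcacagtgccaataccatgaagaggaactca

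The Amh window holds AAGGTCA, the motif of the orphan receptor family NR5A, 84 to 78 bases before the start, the GATA motif TGATAG 67 to 62 bases before it and a TATA motif, TATAAG, 27 to 22 bases before it. The Inha window holds 2 GATA motifs, AGATAA on one side and AGATAG on the other side of a TGCGTCA, a variant of the cyclic AMP response element, which lies 119 to 113 bases before the start. The Inhba window holds AGATAG and, 40 to 35 bases before the start, TATAAA. On either strand, AAGGTCA was found in 3.99% of 33469 rat promoter windows of this length, the GATA motif (spelled AGATAA or with a final G as AGATAG, and likewise with a first T as TGATAA or finally TGATAG) in 27%, the response element (TGACGTCA in full or the shorter TGCGTCA) in 3.17% and the AP-1 site TGANTCA in 6.34%, and on the given strand a TATA motif (TATAAA or, as in Amh, TATAAG) in 11.6%. None of these letters is in the windows of Inhbb, Amhr2 and Fstl3. The GC content was 62.4% for Amh, 58.4% for Inha, 43.6% for Inhba and 86.8% for Inhbb.

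**Figure D1:**
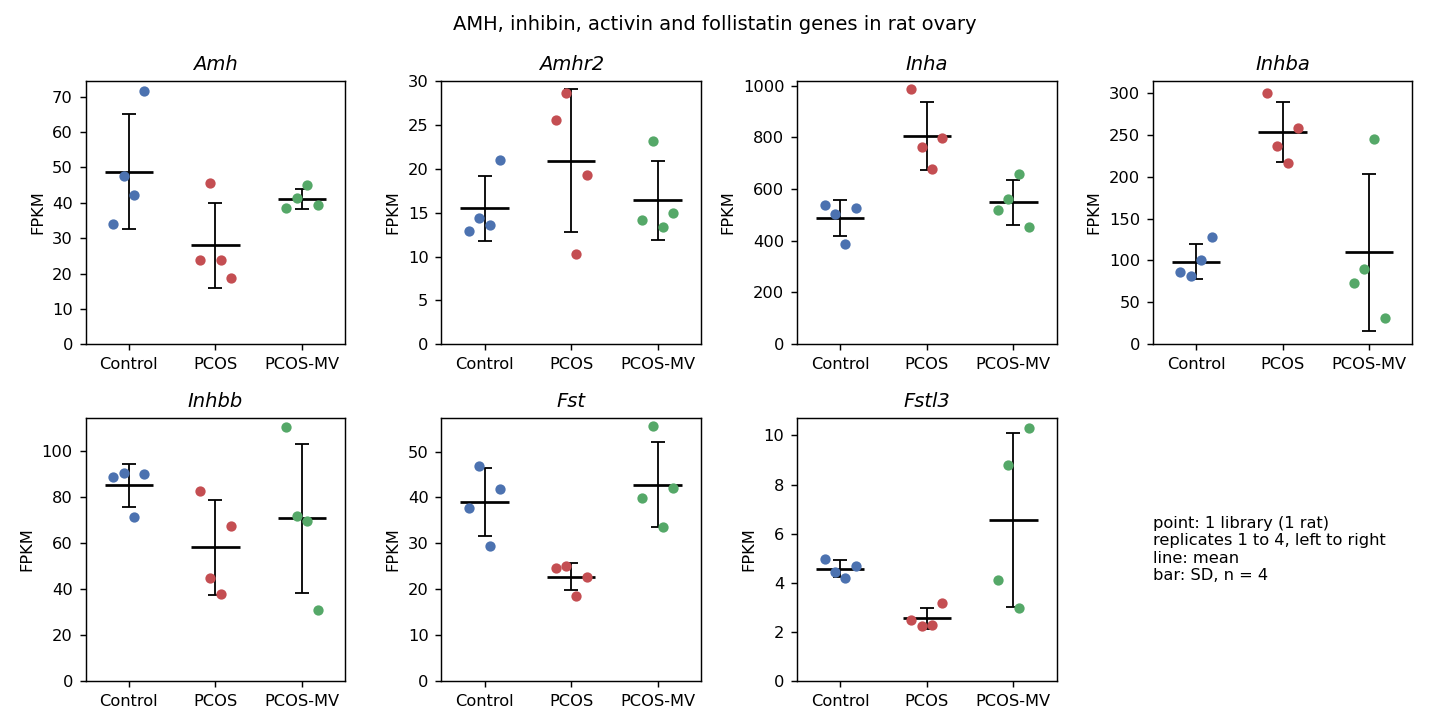
Level of each of the 7 genes in FPKM by group, on its own axis, with a point for each of the 4 libraries and a line at the group mean ± SD. The 4 PCOS libraries lie above all 4 Control libraries for Inha and Inhba and below them for Fst and Fstl3, while Amhr2 ranges overlap in every group.

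Inha, the alpha subunit shared by both inhibins (ENSRNOG00000020097, 2 exons on the plus strand of chromosome 9, 82700468 to 82703400 in the authors' file, whose build is not given in the sources used here), was the most abundant of the 7 genes and ranked 40 of 19730 by its mean over the libraries. Its level in Control replicates 1 to 4 was 540.1, 503, 388 and 528 FPKM. In the PCOS libraries it was 988, 764, 676 and 798 FPKM, and in PCOS-MV 519, 561, 659 and 453 FPKM. All 4 PCOS libraries lay above all Control and all PCOS-MV libraries, and Control and PCOS-MV overlapped. The mean was 806 ± 131 FPKM in PCOS against 489.7 ± 69.9 FPKM in Control (SD, n = 4 each), 1.65 times as high (log2 change 0.72 ± 0.15 SE, limma adjusted p = 0.00832, exact permutation p = 0.0286, the smallest that 4 against 4 libraries allow). In PCOS-MV vs PCOS it was lower by 0.56 on the log2 scale, with a ratio of means of 0.680 (SE 0.16, limma adjusted p = 0.0310). This last call rests near the threshold: it was lost with no filter on low values (adjusted p = 0.0685), with the replicate number as a block (adjusted p = 0.0681) and in 6 of 8 fits without 1 library.

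Inhba, the beta A subunit of inhibin A and activin A (ENSRNOG00000014320, 3 exons on the minus strand of chromosome 17, 51898217 to 51912496), was at 85.9, 80.9, 100.1 and 127 FPKM in the Control libraries. It was at 300.0, 237, 216 and 259 FPKM in the PCOS libraries, all of them above every Control library. The ratio of means was 2.57, with a log2 change of 1.36 ± 0.16 (SE, 95% interval 1.003 to 1.72, limma adjusted p = 0.000429, exact permutation p = 0.0286). In PCOS-MV it was at 73.4, 89.3, 245 and 31.3 FPKM, so that replicate 3 lay inside the PCOS range and the other 3 within or below the Control range. The difference from PCOS was -1.56 on the log2 scale (95% interval -2.73 to -0.39) and missed the threshold (limma adjusted p = 0.0557, exact permutation p = 0.0857). Without PCOS-MV replicate 3 it was -2.07 with an adjusted p of 0.00400, the only call in 8 fits without 1 library. With all 12 libraries in 1 model, which share 1 spread, the adjusted p was 0.0270, the only call in 7 other alternatives. In the same model the PCOS vs Control change of Inhba kept its call only narrowly (SE 0.45, limma adjusted p = 0.0437).

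Inhbb, the beta B subunit (ENSRNOG00000060237, 2 exons on the minus strand of chromosome 13, 35436532 to 35442222), gave no call. Its level was 88.7, 90.4, 71.2 and 90.0 FPKM in Control and 82.5, 44.6, 38.0 and 67.4 FPKM in PCOS, so that only PCOS replicate 1 lay inside the Control range. The log2 difference was -0.60 ± 0.23 SE (limma adjusted p = 0.0848, exact permutation p = 0.0571). Without PCOS replicate 1 it was -0.79 with an adjusted p of 0.0233, the only call in 8 fits without 1 library. None of the 7 other alternatives called it. In PCOS-MV it spread over 110.5, 71.8, 69.6 and 30.8 FPKM, a range that covered that of PCOS, and its difference from PCOS was 0.21 ± 0.38 SE on the log2 scale (adjusted p = 0.722).

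Amh (ENSRNOG00000019377, 5 exons on the minus strand of chromosome 7, 11775155 to 11777503, with Sf3a2 323 bases away on the same strand) was at 33.96, 47.7, 42.1 and 71.7 FPKM in the Control libraries. It was at 23.8, 45.6, 23.8 and 18.7 FPKM in the PCOS libraries, of which replicate 2 alone lay within the Control range. The means were 48.9 ± 16.2 and 27.99 ± 12.02 FPKM (SD, n = 4 each), and the log2 difference of -0.81 (95% interval -1.48 to -0.14) missed the threshold (limma adjusted p = 0.0738, exact permutation p = 0.0857). Without PCOS replicate 2 it was -1.07 with an adjusted p of 0.0174, the only call in 8 fits without 1 library. With all 12 libraries in 1 model the adjusted p was 0.0360, the only call in 7 other alternatives. The PCOS-MV libraries lay close together, at 38.6, 41.3, 45.03 and 39.5 FPKM, within the Control range and with only PCOS replicate 2 as high. The log2 difference of PCOS-MV from PCOS was 0.62 ± 0.23 SE (adjusted p = 0.0865). Without PCOS replicate 2 it was 0.87 with an adjusted p of 0.00259, again the only call in 8 fits without 1 library. None of the 7 other alternatives called it.

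Amhr2, the AMH receptor (ENSRNOG00000014850, on the plus strand of chromosome 7, 144052061 to 144060685, with 10 or 11 exons in its 2 transcripts), did not pass in any comparison. It was at 13.0, 14.5, 13.6 and 21.1 FPKM in Control, at 25.6, 28.7, 10.2 and 19.3 FPKM in PCOS and at 14.2, 23.2, 13.4 and 14.9 FPKM in PCOS-MV. The PCOS libraries included both the highest and the lowest of all 12. The log2 difference was 0.34 in PCOS vs Control (95% interval -0.33 to 1.02, adjusted p = 0.420), and PCOS-MV differed from PCOS by -0.27 (adjusted p = 0.545).

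Fst (ENSRNOG00000011631, 6 exons on the minus strand of chromosome 2, 46538700 to 46544457) was at 37.6, 46.8, 29.5 and 41.9 FPKM in Control and at 24.7, 25.1, 18.6 and 22.5 FPKM in PCOS. In PCOS-MV it was at 39.8, 55.5, 33.5 and 42.1 FPKM. All 4 PCOS libraries lay below all libraries of both other groups, which overlapped. The ratio of means was 0.583 in PCOS vs Control (log2 change -0.74 ± 0.15 SE, limma adjusted p = 0.00713, exact permutation p = 0.0286) and 1.88 in PCOS-MV vs PCOS (log2 change 0.87 ± 0.16 SE, limma adjusted p = 0.00508, exact permutation p = 0.0286).

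Fstl3 (ENSRNOG00000009311, 5 exons on the minus strand of chromosome 7, 12804919 to 12810570) was the least abundant member. It was at 4.99, 4.45, 4.20 and 4.66 FPKM in Control and at 2.49, 2.24, 2.27 and 3.17 FPKM in PCOS, with no overlap, and the ratio of means was 0.557 (log2 change -0.66 ± 0.11 SE, limma adjusted p = 0.00228, exact permutation p = 0.0286). With all 12 libraries in 1 model, the adjusted p was 0.0993. In PCOS-MV it was at 4.11, 8.80, 2.98 and 10.3 FPKM, with replicate 3 inside the PCOS range and replicates 2 and 4 above every other library. The difference from PCOS was 0.97 on the log2 scale (SE 0.32, adjusted p = 0.0558). Without PCOS-MV replicate 3 it was 1.23 with an adjusted p of 0.0132, the only call in 8 fits without 1 library. It was called in 2 of 6 other alternatives.

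**Figure D2:**
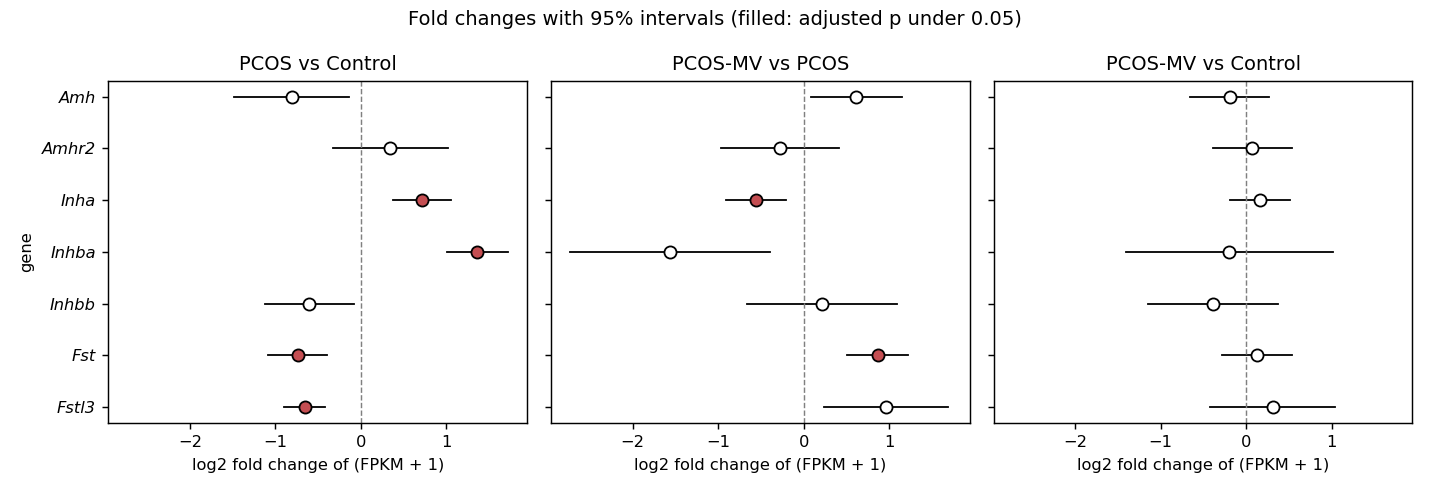
Difference in mean log2(FPKM + 1) for the 7 genes in PCOS vs Control, PCOS-MV vs PCOS and PCOS-MV vs Control, with 95% intervals from limma and filled points for an adjusted p under 0.05. Inhba has the largest value in PCOS vs Control, 1.36, and its interval in PCOS-MV vs PCOS, -2.73 to -0.39, is the widest of the 7 in that comparison.

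The order of the levels changed little between groups. Inha was highest and Fstl3 lowest in each group, with ranges separate from those of their neighbours. In Control, Inhba, Inhbb, Amh and Fst followed Inha in this order, each overlapping the next, and Amhr2 lay below them. In PCOS, Inhba stood apart from Inhbb, while Inhbb, Amh, Fst and Amhr2 overlapped in turn. In PCOS-MV, Inhba, Inhbb, Fst and Amh overlapped in turn, as in Control.

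The beta subunits did not move together. The ratio of Inhba to Inhbb FPKM averaged 1.17 in Control (0.894 to 1.42) and 4.62 in PCOS (3.64 to 5.69), and in PCOS-MV it averaged 1.61, with 3 libraries between 0.664 and 1.24 and replicate 3 at 3.53. Inha over the sum of both beta subunits was 2.68 in Control and 2.60 in PCOS, and 3.92 in PCOS-MV, where replicate 4 stood at 7.29. Fst over the same sum was 0.213 in Control (0.172 to 0.273), 0.0740 in PCOS (0.0646 to 0.0891) and 0.336 in PCOS-MV (0.106 to 0.677). These ratios of transcript levels were not tested, and they are not ratios of protein dimers.

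Some further ratios were chosen after the values were seen and also have no test. Amh over Inha was 0.101 in Control (0.0629 to 0.136), 0.0356 in PCOS (0.0234 to 0.0597) and 0.0759 in PCOS-MV (0.0683 to 0.0871). Relative to the summed granulosa markers, of which Gja1 gave 50.5%, Inha was 0.842 in Control (0.722 to 1.06) and 0.836 in PCOS (0.719 to 0.923), with overlap, and 1.01 in PCOS-MV (0.940 to 1.16). On this scale Inha was higher in every PCOS-MV library than in any PCOS library, as a gene with unchanged FPKM would be. Its FPKM level was lower. Inhba was 0.168 (0.135 to 0.186) in Control and 0.263 (0.223 to 0.280) in PCOS, without overlap, and 0.197 in PCOS-MV (0.0654 to 0.432). Amh was 0.0816 (0.0665 to 0.102) in Control and 0.0288 (0.0196 to 0.0430) in PCOS, again without overlap, and 0.0762 (0.0699 to 0.0823) in PCOS-MV. Inhbb, Fst and Fstl3 were also lower in all PCOS than in all Control libraries on this scale, with means of 0.0596 against 0.146 for Inhbb, 0.0235 against 0.0665 for Fst and 0.00267 against 0.00790 for Fstl3. Their PCOS-MV means were 0.129, 0.0793 and 0.0124. Amhr2 overlapped, at 0.0240 to 0.0299 in Control and 0.0130 to 0.0270 in PCOS. The summed markers were themselves 511 to 703 FPKM in Control, 786 to 1070 FPKM in PCOS and 480 to 568 FPKM in PCOS-MV. A gene with unchanged FPKM would therefore also be lower in every PCOS library than in any Control or PCOS-MV library on this scale. The share of all genes that would separate on this scale was not computed. In FPKM, Amh and Inhbb overlapped between these groups and were not called.

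**Figure D3:**
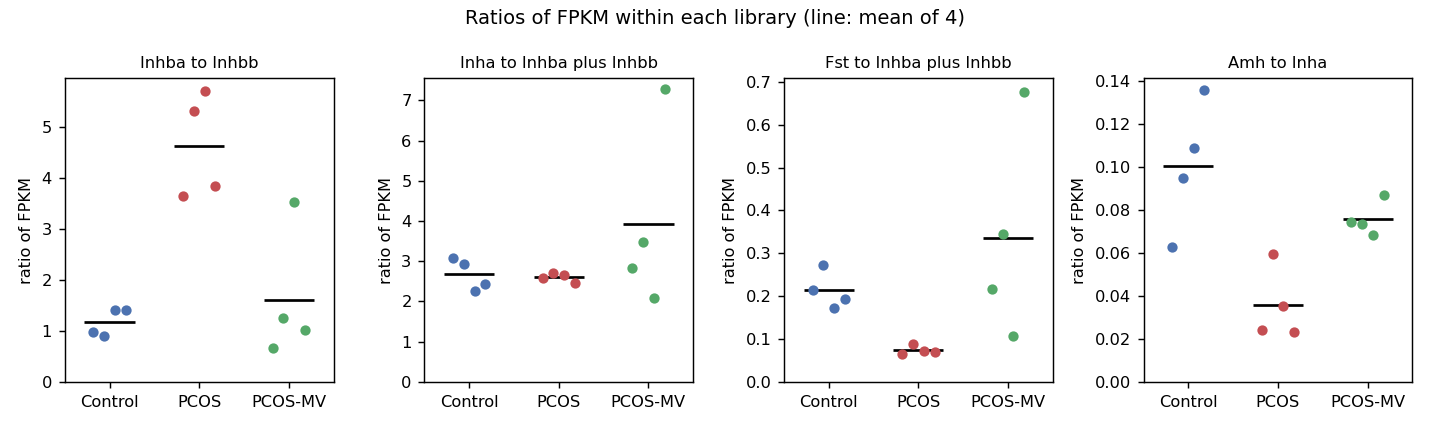
Ratios of FPKM values by group for Inhba to Inhbb, Inha and Fst to the sum of both beta subunits, and Amh to Inha, with a point for each library and a line at the group mean. Inhba to Inhbb lies at 3.64 or above in all 4 PCOS libraries and at 1.42 or below in all Control libraries, and PCOS-MV replicate 3, at 3.53, lies apart from the other PCOS-MV libraries.

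The receptors, coreceptors, convertases and SMAD proteins that make and read these ligands were held in fixed lists of 31 genes, 27 of which could be tested. In PCOS vs Control, 5 were higher and 2 lower, 25.9% against 27.4% of all genes. In PCOS-MV vs PCOS, 1 was higher and 5 lower, 22.2% against 25.7%. The median log2 change of the 27 genes was -0.02 and -0.03 in these comparisons, against -0.03 and 0.03 over all genes tested. For PCOS-MV against Control, limma called 0 of the 27, where 1 of the 13430 genes tested (0.00745%) was called. An unadjusted p under 0.05 was seen for 0 of the 27 and for 8.5% of all genes tested. The 8 SMAD genes, which carry the signal to the nucleus, gave no call by limma in either comparison (an unadjusted p under 0.05 was seen for 0 of 8 when PCOS was set against Control, where 39.4% of all genes had one, and for 1 of 8 when PCOS-MV was set against PCOS, where 38.5% did).

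Among coreceptors, Igsf1, a membrane protein once described as an inhibin-binding protein, was at 1.40 to 2.62 FPKM in Control, 9.45 to 11.3 in PCOS and 1.46 to 2.03 in PCOS-MV. Its log2 change was 1.98 in PCOS vs Control (limma adjusted p = 2.5e-05), and PCOS-MV differed from PCOS by -2.05 (adjusted p = 1.6e-05). Tgfbr3, betaglycan, which lets inhibin hold type II receptors and so oppose activin, was at 27.2 to 48.4, 68.6 to 77.5 and 45.3 to 58.2 FPKM in the 3 groups, with log2 changes of 0.89 (adjusted p = 0.00495) and -0.55 (adjusted p = 0.00363). For both genes the PCOS range lay above the ranges of both other groups.

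Of the type II receptors, Acvr2a, which binds activin, was lower in PCOS, with a mean of 10.2 FPKM against 15.6 FPKM in Control (log2 change -0.57, adjusted p = 0.000630), and was at 12.9 FPKM in PCOS-MV (log2 difference 0.31, adjusted p = 0.0904). Acvr2b averaged 3.26, 2.32 and 2.51 FPKM in Control, PCOS and PCOS-MV, and Bmpr2 65.1, 61.4 and 52.9 FPKM, with no call for either. Of the type I receptors, Bmpr1b averaged 38.3, 57.7 and 31.5 FPKM, with log2 changes of 0.61 (adjusted p = 0.0280) and -0.86 (adjusted p = 0.00162). Bmpr1a, a type I partner of the AMH receptor, averaged 38.5, 41.7 and 37.4 FPKM, Acvr1 9.47, 9.44 and 9.68 FPKM, and Acvr1b, the main activin type I receptor, 6.63, 6.44 and 6.14 FPKM, and none of the 3 was called.

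Pcsk6, a proprotein convertase that cleaves precursors of this family, averaged 7.13, 16.6 and 8.98 FPKM, with log2 changes of 1.12 (adjusted p = 0.000104) and -0.89 (adjusted p = 0.0219). Fkbp1a, which binds type I receptors and keeps them inactive, moved the other way, at 164, 86.7 and 177 FPKM (log2 changes -0.91, adjusted p = 7.9e-05, and 1.02, adjusted p = 0.000288). Zfyve9, which brings SMAD2 and SMAD3 to the receptor, was named after its values were seen. It averaged 13.2, 23.2 and 12.6 FPKM, with log2 changes of 0.78 (adjusted p = 0.00202) and -0.83 (adjusted p = 0.000288).

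**Figure D4:**
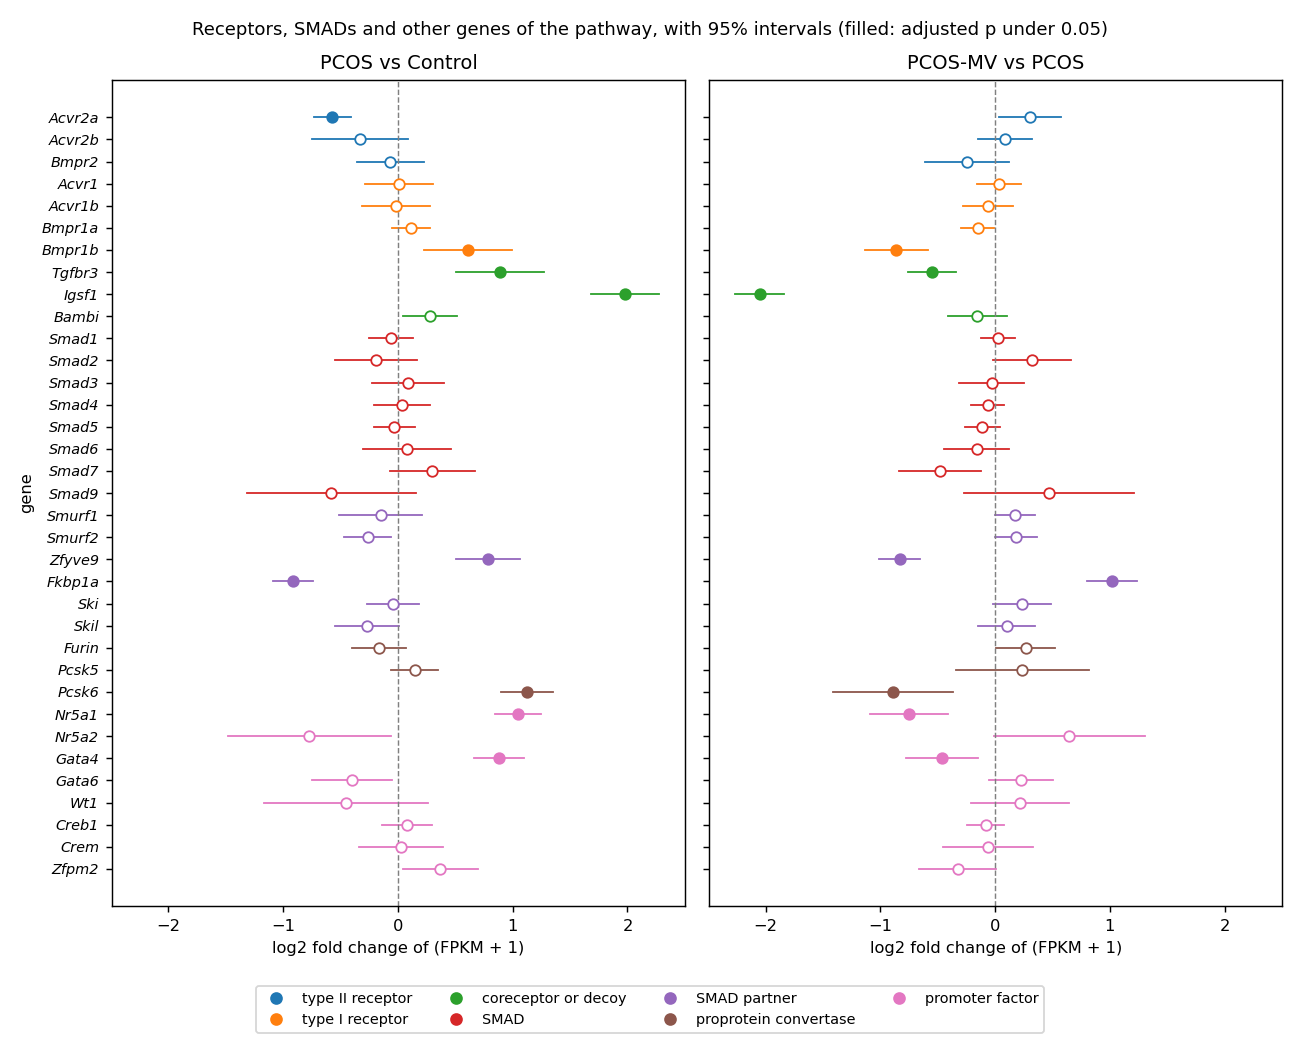
Difference in mean log2(FPKM + 1) for PCOS against Control and for PCOS-MV against PCOS, over the 27 tested genes of the receptor, coreceptor, convertase and SMAD lists and the 8 tested promoter factors, with 95% intervals, a colour for each list and filled points for a limma adjusted p under 0.05. Igsf1 has the largest value in both comparisons, 1.98 and -2.05.

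Of the factors whose motifs were searched, or which are known to act at these promoters, 8 of 9 could be tested. Nr5a1, which encodes SF-1, the orphan receptor that binds AAGGTCA, averaged 53.9, 112 and 67.2 FPKM (log2 changes 1.04, adjusted p = 7.5e-05, and -0.75, adjusted p = 0.00786). Gata4 averaged 37.3, 69.7 and 50.8 FPKM (log2 changes 0.88, adjusted p = 0.000285, and -0.46, adjusted p = 0.0393). Both are also made by theca cells, and the part of theca cells in these values was not tested. Nr5a2, Gata6, Wt1, Creb1, Crem and Zfpm2 were not called in either comparison. The 2 called were 25.0% of the 8 tested in each comparison, against 27.4% and 25.7% of all genes tested.

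For the 4 genes called, the genes of most similar pattern were ranked by the mean absolute difference of log2(FPKM + 1), centred on each gene's mean, over the 12 libraries. For Inha they were Helz2 (0.112), Adgrg1 (0.123) and Cbfa2t3 (0.123), against a median of 0.361 over tested non-member genes with a symbol. For Inhba they were Tmem50b (0.326), Ly9 (0.333) and Slc3a2 (0.343), against 0.841. For Fst they were Smco4 (0.117), Nectin2 (0.135) and Thbs1 (0.137), against 0.407, and for Fstl3 Vdr (0.160), Gpc6 (0.168) and Adamts3 (0.169), against 0.458. The nearest genes lie below such a median by the way they were picked.

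In PCOS-MV vs Control, limma called 0 of the 7 genes, and 0 had an unadjusted p under 0.05, with a median log2 difference of 0.07 over the 7. Over all genes tested, 1 gene (0.00745%) was called and 8.5% had an unadjusted p under 0.05. The 95% interval of the log2 difference was -0.20 to 0.52 for Inha, -0.29 to 0.54 for Fst, -0.65 to 0.27 for Amh and -0.39 to 0.53 for Amhr2. It was wider for Inhba (-1.41 to 1.01), Inhbb (-1.15 to 0.37) and Fstl3 (-0.42 to 1.03). The log2 values of PCOS against Control lie outside these intervals for Inha, Inhba, Amh, Fst and Fstl3 and inside them for Inhbb and Amhr2. Those values have errors of their own and share the Control libraries, so this is no test of PCOS-MV against PCOS. In that comparison Amh (adjusted p = 0.0865), Inhba (0.0557) and Fstl3 (0.0558) were not called by limma.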

How the data were processed

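Ovarian RNA of 12 rats was sequenced with a NEBNext Ultra library kit. The deposited table holds FPKM values that the authors computed per gene. The paper names HISAT2 2.0.5 and featureCounts for alignment and counting, whereas the submitters' processing notes name STAR 2.5.1b and HTSeq 0.6.0. The genome build is not given in the sources used here, and neither is strandedness. The columns headed MG were read as the PCOS-MV group. The authors' own fold changes, p-values and group means were in the same table and were not used.

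The table repeats each gene on its transcript lines (26928 lines, identical within a gene), so a single line stood for each of 19730 genes. The 13430 genes averaging 1 FPKM or more over all libraries were put on the log2(FPKM + 1) scale. They were fitted in pairs of groups in R 4.3.3 by limma 3.58.1 (functions lmFit and eBayes, trend on) and called at a Benjamini-Hochberg adjusted p under 0.05 over all genes. Fold changes on this scale understate changes of low genes. The study tested counts with DESeq2, which the FPKM values do not allow. Single genes were also tested by exact two-sided permutation (4 against 4). The scripts were tested on simulated data. Values were summarised in Python 3.11.15 with pandas 2.3.3.

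The 7 genes and all lists were chosen with earlier results of these data known. The named genes were the 7 members, the receptors, Tgfbr3, the promoter factors, the 3 largest called rises and falls of the pathway lists, and the 3 nearest profiles of each called member that had a symbol and not a locus identifier. A few marker symbols that the file did not match were not used here. Promoter sequences came from RefSeq (GRCr8), and the Fst window was not used here. Alternatives were another filter, another pseudocount, other scalings, 1 model for all libraries, a replicate block and leaving out each library. Replicates are separate rats.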

Additional observations from a re-analysis of the deposited data

Results flagged for a closer look

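Among 111 groups of 4 libraries examined, 4 had a library far from the other 3 by Dixon's test, where chance gives about 5.55. The groups were those of the members, the named pathway genes except Zfyve9, the promoter factors tested and the ratios. Amhr2 was at 23.2 FPKM in PCOS-MV replicate 2, against 13.4 to 14.9 FPKM in the other PCOS-MV libraries. Inhbb was at 71.2 FPKM in Control replicate 3, against 88.7 to 90.4 FPKM. Tgfbr3 was at 58.2 FPKM in PCOS-MV replicate 4, against 45.3 to 47.2 FPKM. The ratio of Inhba to the summed granulosa markers was 0.223 in PCOS replicate 2, against 0.272 to 0.280 in the other PCOS libraries.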

How the results depend on the processing

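Of 312 log2 changes of the 7 genes recomputed under alternatives, 288 kept their direction and their side of the threshold, 9 lost a call, 9 gained one and 6 changed sign, all 6 from values not called. In PCOS-MV vs PCOS, where 2 genes were called, 1 was called with no filter on low values, 4 with all 12 libraries in 1 model and 1 to 4 when 1 library was left out. In PCOS-MV vs Control, where 1 gene of the whole table was called, 0 were called with a mean of at least 5 FPKM or with a replicate block and 1 to 4 when 1 library was left out. The signs that changed on leaving out 1 library were those of Inhbb in PCOS-MV vs PCOS (-0.045 to 0.56, negative without PCOS-MV replicate 1) and, for PCOS-MV against Control, of Amhr2 (-0.097 to 0.22, negative without PCOS-MV replicate 2 and, at -0.0012, without Control replicate 1), Amh (-0.35 to 0.0059, positive without Control replicate 4), Fst (-0.0041 to 0.23, negative without PCOS-MV replicate 2) and Inhba (-0.71 to 0.27, positive without PCOS-MV replicate 4). The cause was not tested. Fstl3 has no value with a mean of at least 5 FPKM, which it does not reach.

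The replicate numbers were not taken to pair the samples, since the labels give them no meaning and not every pair's correlation was over 0.1. Deviations of same-numbered libraries correlated at -0.033 to 0.024 between the PCOS and Control groups, at 0.035 to 0.172 between PCOS-MV and PCOS and at -0.053 to 0.216 between PCOS-MV and Control, and 0, 3 and 1 of 4 pairs correlated best with their own number. In PCOS-MV against PCOS this leaves a hint of shared variation that the labels do not explain. With the replicate as a block, 2905 and 3079 genes were called in the first 2 comparisons and 4 and 2 members. In PCOS-MV vs PCOS the block took the call from Inha and gave one to Fstl3 (adjusted p = 0.0435). The deposited FPKM values carry no counts, so counting error could not be set beside the spread between rats.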
